A study of Mus musculus with 9 samples.

Results

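Integrin subunits were followed by RNA sequencing in B16 cells, a line derived from a mouse melanoma, which were cultured on a flexible PDMS film. The members were 10 integrin genes chosen by symbol, by a rule that uses no measured value, out of 22972 gene names listed in each library. They comprised 7 α subunits (Itgav, Itga2, Itga3, Itga4, Itga5, Itga6 and Itga7) and 3 β subunits (Itgb1, Itgb3 and Itgb5), and all 10 were listed in every library. A total of 9 libraries were analyzed at day 3, 3 in each group. CTL cells were wild type and unstrained, MS cells were wild type and cyclically strained for 72 h, and Blebb. cells were wild type and treated for 72 h with 100 ng/mL of blebbistatin, which inhibits myosin. The labels of the Blebb. group name the inhibitor alone, while the study describes this group as strained as well; both comparisons are therefore given. All groups shared the line, the film and the serum-containing medium, and each library is labelled as a parallel experiment of its group. No source says that the libraries came from separate cultures, so p-values measure the spread between these libraries only, which may be technical.

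Integrins are transmembrane receptors made of 1 α and 1 β chain. The pair decides what the cell holds on to: αv chains with β3 or β5 and α5 with β1 bind the RGD motif of fibronectin and vitronectin, α6 and α3 with β1 bind laminins, α2 with β1 binds collagens, and α4 with β1 binds fibronectin and VCAM-1. Inside the cell the β tail recruits talin and kindlin and through them the actin cytoskeleton, which places integrins at the focal adhesions where traction is sensed. Melanoma cells are known for αvβ3 in the invasive phase of growth.

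Values are FPKM, which divides a gene's fragments by the length of the gene and by the library's mapped total, so levels of different genes can be set side by side. The columns summed to between 439939 and 484093 FPKM, and between 9529 and 10388 genes reached 1 FPKM per library. The number of reads is unknown, since ratios of low values between libraries gathered at no step (no bin 0.02 wide on the log2 scale held over 1.61% of them in the 36 pairs of libraries), and no counting intervals are given. All 8 melanoma markers exceeded a mean of 1 FPKM, led by Pmel at 3827 FPKM, while the leukocyte marker Ptprc and the endothelial markers Cdh5, Kdr and Tek were listed at 0 in all libraries and the highest value of any of the 25 markers of other cell types was 1.48 FPKM (Lyz2). The libraries CTL 1, MS 3 and Blebb. 2, which is 1 library of each group, stood apart from the other 6 on the first principal component once the trend with GC content was removed (as deposited, Blebb. 1 lay on their side as well). In bulk RNA, fewer cells with a transcript and less of it per cell cannot be told apart.

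The promoters of 4 members are shown because of how their transcripts moved across the libraries. Those of Itgb1 and Itgav went largely together (Pearson's r 0.77), though not in MS 3. Those of Itga5 went against both (r -0.78 and -0.91), as did those of Itgb5 over a narrower range (r -0.76 and -0.80). RefSeq (GRCm38.p6) gave an entry for 7 of the 10 members, those other than Itgb3, Itga6 and Itga7. Each line gives the 250 bases before the RefSeq start of the gene, 5′ to 3′ on the strand of the gene. Letters are in lower case with matches to the GC box (GGGCGG or CCGCCC, read on both strands) in capitals.
Itgb1, chr8:128685404-128685653, plus strand: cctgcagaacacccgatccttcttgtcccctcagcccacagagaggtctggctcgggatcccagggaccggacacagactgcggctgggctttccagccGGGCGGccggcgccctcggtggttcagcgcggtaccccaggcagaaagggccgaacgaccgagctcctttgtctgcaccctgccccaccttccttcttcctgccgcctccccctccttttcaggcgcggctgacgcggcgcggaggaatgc
Itgav, chr2:83724147-83724396, plus strand: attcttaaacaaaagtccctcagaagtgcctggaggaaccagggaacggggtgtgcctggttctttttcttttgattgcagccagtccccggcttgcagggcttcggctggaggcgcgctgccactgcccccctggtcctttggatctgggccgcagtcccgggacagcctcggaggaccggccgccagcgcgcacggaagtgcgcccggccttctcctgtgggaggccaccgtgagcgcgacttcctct
Itga5, chr15:103366792-103367041, minus strand: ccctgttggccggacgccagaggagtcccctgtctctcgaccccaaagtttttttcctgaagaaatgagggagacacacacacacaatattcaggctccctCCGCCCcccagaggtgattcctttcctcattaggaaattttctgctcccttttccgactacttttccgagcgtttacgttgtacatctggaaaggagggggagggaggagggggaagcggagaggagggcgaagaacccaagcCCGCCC
Itgb5, chr16:33829415-33829664, plus strand: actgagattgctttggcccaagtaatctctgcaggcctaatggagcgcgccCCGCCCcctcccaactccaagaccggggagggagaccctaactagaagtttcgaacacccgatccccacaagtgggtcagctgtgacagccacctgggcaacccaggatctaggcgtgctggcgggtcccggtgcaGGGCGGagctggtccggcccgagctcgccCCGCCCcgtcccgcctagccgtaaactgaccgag

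These windows held 68.0% (Itgb1), 64.4% (Itgav), 55.6% (Itga5) and 65.2% (Itgb5) G and C, with 21, 18, 11 and 18 CG dinucleotides, beside medians of 52.4% and 6 over 32851 promoters of the same length. The GC box was found 1 time in Itgb1, 2 times in Itga5, 3 times in Itgb5 and 0 times in Itgav, and 32.7% of all promoters held it. None of the 4 windows held CCAAT (33.8% of all promoters), TATAAA (12.4%), CATGTG, a motif bound by the melanocyte factor MITF (12.3%), or TGACTCA, the AP-1 site (4.46%), on either strand. Itga2, Itga3 and Itga4 had entries as well, which are not printed. The transcripts of Itga4 also went with those of Itgb1 and Itgav. Its window held 64% G and C, 6 CG dinucleotides and 1 GC box. Of the entries of Itga3, 1 held CCAAT and CATGTG. A match or its absence describes these letters only. In GENCODE M21 on the same build, Itgb1 spans chr8:128685654-128733200, Itgav chr2:83724397-83806916, Itgb5 chr16:33829665-33949338, all on the plus strand, and Itga5 chr15:103344286-103366763 on the minus strand. The Itga5 window lies upstream of its GENCODE start without touching it, while the other windows end right before theirs.

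Itgb1 encodes the β chain with the largest number of α partners and had the highest mean of the members. Its level was 23.5, 34.6 and 47.4 FPKM in CTL, 54.2, 31.5 and 47.2 FPKM in MS and 23.5, 17.3 and 46.0 FPKM in Blebb. libraries 1 to 3. The highest and lowest library differed by 3.14-fold, and the 3 groups overlapped one another. Itgb5, a β chain that pairs with αv alone, was nearly as high and far steadier. It read 37.9, 30.7 and 33.4 FPKM in CTL, 27.9, 35.4 and 33.2 FPKM in MS and 37.4, 36.4 and 26.5 FPKM in Blebb. (1.43-fold between the extremes). Itgb3, the other β partner of αv here, was the lowest of the 3 β members. Its level was 7.75, 4.04 and 4.91 FPKM in CTL, 3.94, 3.81 and 6.54 FPKM in MS and 4.42, 8.08 and 4.06 FPKM in Blebb. The 2 highest Itgb3 values were those of Blebb. 2 and CTL 1, and the groups overlapped.

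Of the α members, Itga6, the laminin-binding chain, had the highest mean. Its level was 5.89, 11.4 and 16.2 FPKM in CTL, 18.1, 10.4 and 11.5 FPKM in MS and 7.49, 4.62 and 12.7 FPKM in Blebb., with 3.92-fold between the extremes. Itgav, the α chain shared by several RGD receptors, was measured at 3.23, 11.2 and 11.4 FPKM in CTL, 12.6, 7.42 and 6.09 FPKM in MS and 7.12, 4.17 and 12.0 FPKM in Blebb. Itga5, the α chain of the classical fibronectin receptor, stood at 12.3, 6.49 and 5.08 FPKM in CTL, 4.72, 6.40 and 8.27 FPKM in MS and 6.42, 14.7 and 6.14 FPKM in Blebb. The libraries that were highest for Itga5, CTL 1 and Blebb. 2, were the lowest for Itgav. Itga4, which also lets cells bind VCAM-1, was lower and the most variable, at 0.683, 3.35 and 3.51 FPKM in CTL, 5.04, 1.82 and 2.07 FPKM in MS and 1.41, 0.785 and 3.85 FPKM in Blebb. It reached 1 FPKM in 7 of 9 libraries. Exons of Itgav share 634 bases with the antisense gene Gm13684 and exons of Itga4 share 1124 bases with Cerkl on the other strand, and it is not stated whether counting used the strand, so reads of these partners cannot be told apart there.

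The other 3 α members stayed under 1 FPKM in every library. Itga3, another laminin-binding chain, was at 0.416, 0.443 and 0.278 FPKM in CTL, 0.250, 0.388 and 0.292 FPKM in MS and 0.440, 0.523 and 0.393 FPKM in Blebb. Itga7, the laminin receptor chain of muscle, ranged from 0.0682 to 0.189 FPKM. Itga2, the collagen receptor chain, did not exceed 0.0281 FPKM and was listed at 0 in Blebb. 1. Among the 7 α members, Itga6, Itgav and Itga5 thus had the highest means, with Itga4 below them.

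**Figure D1:**
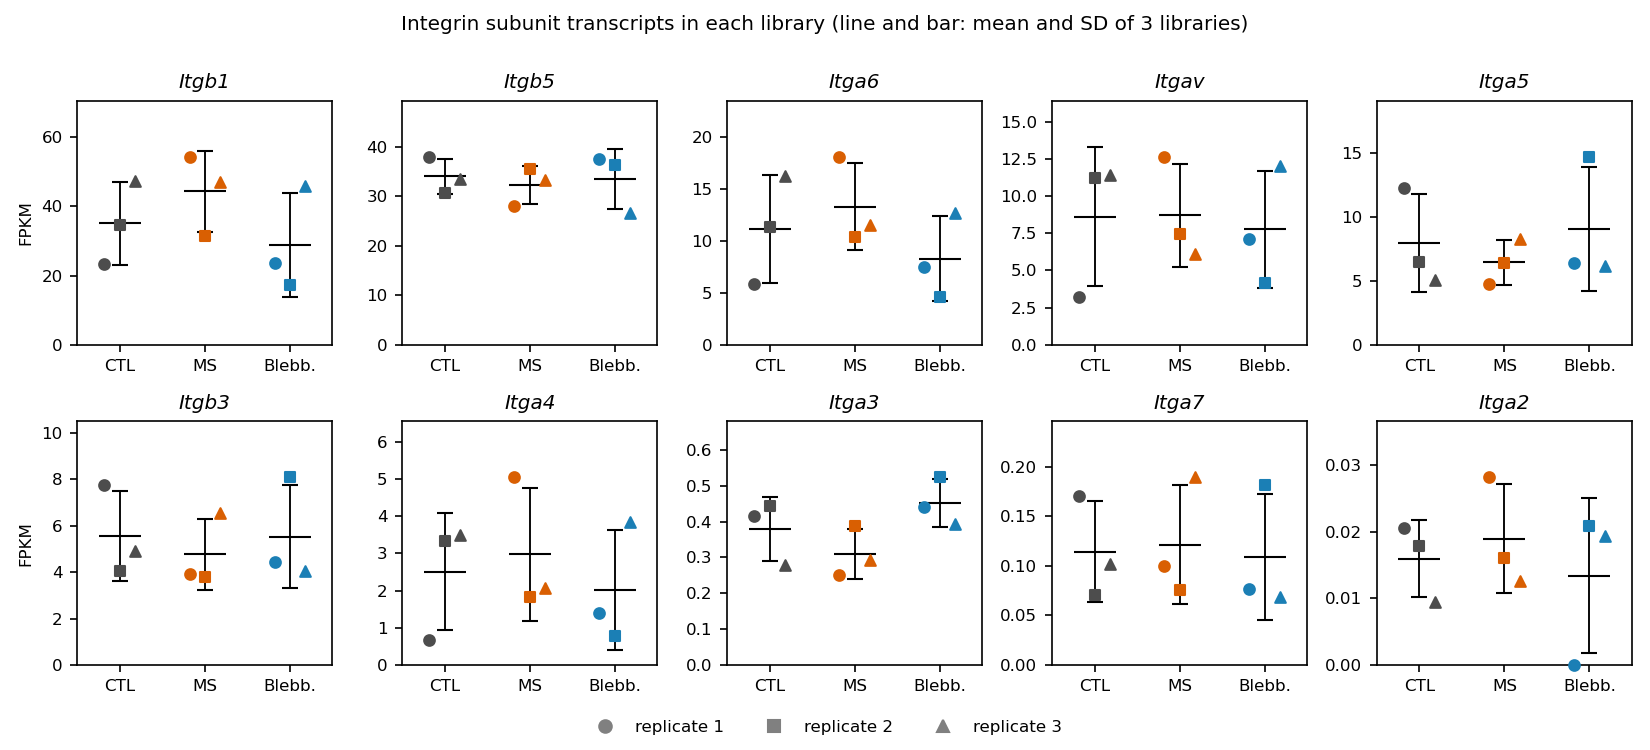
FPKM of the 10 integrin members in each of the 9 libraries, with 1 panel for each gene, points for libraries, a line and bar for the mean and SD of each group (n = 3) and linear axes that start at 0. Itgb5 lies between 26.5 and 37.9 FPKM in all libraries, whereas Itgb1 spreads from 17.3 to 54.2 FPKM within overlapping groups.

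When the members were ordered by their mean over the 9 libraries, the order was Itgb1 (36.1 FPKM), Itgb5 (33.2), Itga6 (10.9), Itgav (8.36), Itga5 (7.84), Itgb3 (5.28), Itga4 (2.50), Itga3, Itga7 and Itga2. Not all neighbours were distinct. Itgb1 was above Itgb5 in 5 of 9 libraries and below it in CTL 1, MS 2, Blebb. 1 and Blebb. 2. Itgav was above Itga5 in 6 of 9 libraries, with the reverse in CTL 1, MS 3 and Blebb. 2. Itgb3 was above Itga4 in 8 of 9 libraries, the exception being MS 1. For a member and its other neighbours the order of the means held in 9 of 9 libraries.

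The makeup of the integrin transcripts differed from library to library within each group. Itgb1 made up 19.9 to 42.7% and Itgb5 22.0 to 42.4% of the summed FPKM of the 10 members, which itself ran from 86.8 FPKM in Blebb. 2 to 127 FPKM in MS 1. By group, the Itgb1 share was 32.7% ± 6.67 in CTL, 38.7% ± 5.49 in MS and 29.2% ± 10.8 in Blebb. (SD, n = 3), so the group means lay within the largest within-group SD of one another. Among the α members, Itga5 held 11.6% of their summed FPKM in MS 1 and 58.8% in Blebb. 2, and Itgav held 30.9 and 16.7% in the same libraries. The ratio of Itga5 to Itgav went from 0.374 in MS 1 to 3.52 in Blebb. 2 and 3.81 in CTL 1, a wider span than that of Itgb1 to Itgb5 (0.475 to 1.94). Transcripts of Itga5 and Itgav hold 57.3 and 43.5% GC, and these shares and ratios keep each library's trend with GC content. The summed FPKM of the 7 α members was 0.327 (MS 3) to 0.475 (CTL 2) of that of the 3 β members, and 0.440 (MS 2) to 0.594 (Blebb. 2) with the non-member Itga9 added to the α chains.

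**Figure D2:**
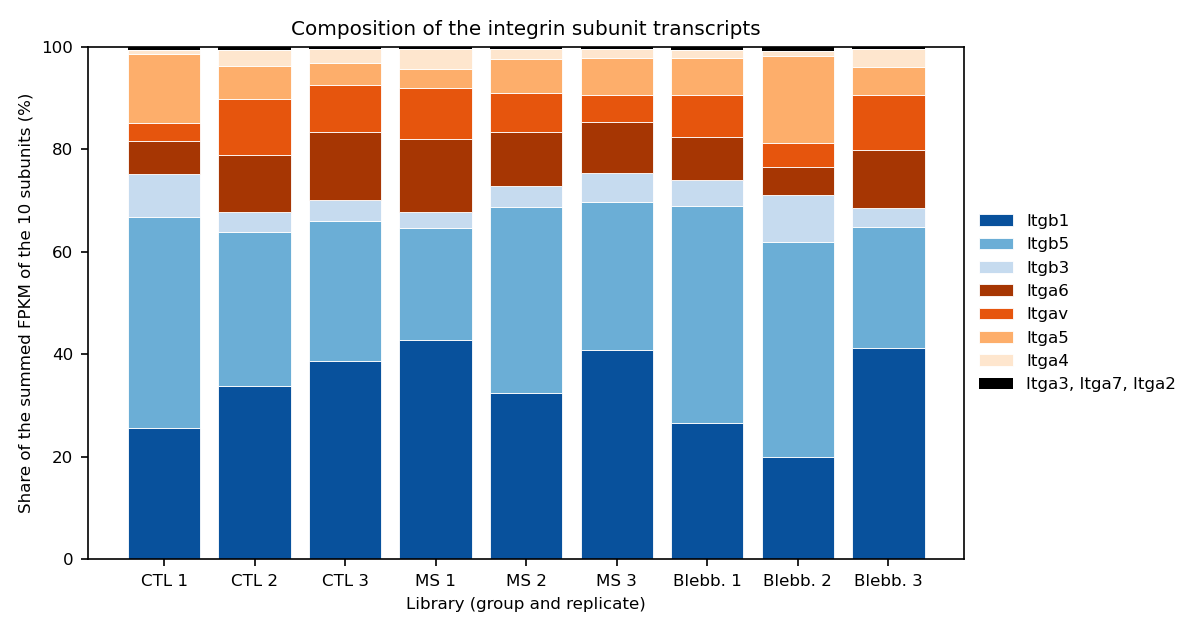
Stacked bars of each member's share (%) in the summed FPKM of the 10 integrin members, 1 bar per library, with Itga3, Itga7 and Itga2 joined. Itgb1 and Itgb5 take the largest parts in every library, and the Itga5 share is highest in CTL 1 (13.4%) and Blebb. 2 (16.9%).

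Whether cyclic straining altered integrin expression was addressed by MS against CTL. Itgb1 averaged 44.3 ± 11.6 FPKM in MS and 35.1 ± 12.0 FPKM in CTL, Itga6 13.3 ± 4.17 and 11.2 ± 5.18 FPKM, and Itga5 6.46 ± 1.78 and 7.96 ± 3.83 FPKM (SD, n = 3). None of these differences exceeded the spread between libraries. With limma on log2(FPKM + 1) and Benjamini-Hochberg adjustment, 0 of the 7 members that averaged 1 FPKM or more passed an adjusted p of 0.05, as did 0.0% of the 10109 genes tested, and 0 of 7 had an unadjusted p under 0.05 (0.158% of all genes tested). The log2 difference of Itgb1 was 0.35 (SE 0.37, 95% interval -0.50 to 1.19, adjusted p = 1.00 in limma), with 2 of 3 MS libraries above the CTL mean, and it was 0.093 without CTL 1, 0.59 without CTL 3 and 0.031 without the 3 libraries that stood apart. That of Itga6 was 0.30 (SE 0.40, interval -0.62 to 1.21; 0.013 without those 3 libraries), that of Itga5 -0.21 (SE 0.38, interval -1.06 to 0.64) and that of Itgav 0.11 (SE 0.48, interval -0.97 to 1.20). The narrowest interval belonged to Itgb5, at -0.077 (SE 0.16, interval -0.45 to 0.30), which leaves room for levels of 0.732 to 1.23 times those of CTL. The members' median difference was 0.11, beside -0.0018 over all genes tested. No member had MS values wholly above or below those of CTL, where 1.09% and 2.28% of the 16483 genes above 0 in any library did.

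Of the differences of the 7 tested members, those farthest from 0 were found in Blebb. against MS, for Itga6 and Itgb1. Itga6 averaged 8.28 ± 4.11 FPKM in Blebb. and 13.3 ± 4.17 FPKM in MS, and Itgb1 28.9 ± 15.1 and 44.3 ± 11.6 FPKM. Transcripts of both chains of the laminin-binding pair α6β1 were lower on average, but library Blebb. 3 was above MS 2 for either gene, so that the groups overlapped. The log2 difference was -0.68 for Itga6 (SE 0.40, 95% interval -1.60 to 0.23, with 3 of 3 Blebb. libraries below the MS mean) and -0.68 for Itgb1 (SE 0.37, interval -1.52 to 0.17, 2 of 3 libraries). The adjusted p was 0.897 for each (limma, Benjamini-Hochberg). These correspond to 0.623 and 0.624 times the MS level. Again 0 of 7 members passed, beside 0.0% of genes tested, and 0 of 7 had an unadjusted p under 0.05, beside 1.25%. Without Blebb. 3 the differences were -1.01 for Itga6 and -1.06 for Itgb1, both at an unadjusted p under 0.05 and with adjusted p from limma still at 0.450 or above over all alternatives. With that library left out, 308 of the 10109 genes tested were higher and 626 lower at such an unadjusted p. Without Blebb. 2 the differences of Itga6 and Itgb1 were -0.37 and -0.38, and without the 3 libraries apart -0.45 and -0.32. After removal of each library's GC trend they were -0.61 and -0.45.

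Itga4, at 2.01 ± 1.62 FPKM in Blebb. and 2.98 ± 1.79 FPKM in MS, had a log2 difference of -0.44 (SE 0.50, interval -1.57 to 0.68), which was -0.096 without MS 1, -0.85 without Blebb. 3 and -0.11 with the GC trend removed. Of the αv chain, its β partners and the α5 chain, Itgav averaged 7.76 ± 3.95 and 8.71 ± 3.45 FPKM (log2 difference -0.19, interval -1.28 to 0.89), Itgb3 5.52 ± 2.22 and 4.76 ± 1.54 FPKM (0.16, interval -0.52 to 0.84), Itga5 9.08 ± 4.85 and 6.46 ± 1.78 FPKM (0.36, interval -0.49 to 1.21) and Itgb5 33.5 ± 6.02 and 32.2 ± 3.85 FPKM (0.044, interval -0.33 to 0.42). The adjusted p of the 7 members lay between 0.897 and 0.967 (limma). Itga3, too low for the fit, was the 1 member of 10 whose groups did not overlap. It averaged 0.452 ± 0.0660 FPKM in Blebb. and 0.310 ± 0.0705 FPKM in MS, with p = 0.1 in a two-sided exact permutation test, the smallest that 3 against 3 libraries can give. The lowest Blebb. value, 0.393 FPKM, was just above the highest MS value, 0.388 FPKM, and with median-of-ratios factors or quantile normalization the groups overlapped (p = 0.2 in the exact permutation test for each). Among the 16483 genes above 0 in any library, 2.82% had Blebb. values wholly above those of MS and 1.32% wholly below, as no member did. At this level, below 1 FPKM and with the depth unknown, the precision of the difference cannot be judged.

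Blebb. against CTL gave smaller values. Itga6 (8.28 ± 4.11 against 11.2 ± 5.18 FPKM) and Itgb1 (28.9 ± 15.1 against 35.1 ± 12.0 FPKM) had log2 differences of -0.39 (SE 0.40, interval -1.30 to 0.52) and -0.33 (SE 0.37, interval -1.18 to 0.51). Without Blebb. 2 these were -0.075 and -0.035. Itga4, Itgav, Itgb5 and Itgb3 stood at -0.22, -0.078, -0.033 and -0.022, the last of which was above 0 under both other scalings, and Itga5 at 0.15. All had an adjusted p of 1.00 (limma). In this comparison too 0 of 7 members passed (0.0% of genes tested), 0 of 7 had an unadjusted p under 0.05 (0.089%), and no member's groups were free of overlap (1.37% of the 16483 genes higher and 1.33% lower). Over all 3 groups at once, the moderated F test of limma called 0 of 7 members and 0.0% of genes tested. The 3 comparisons share libraries and are not independent of one another.

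**Figure D3:**
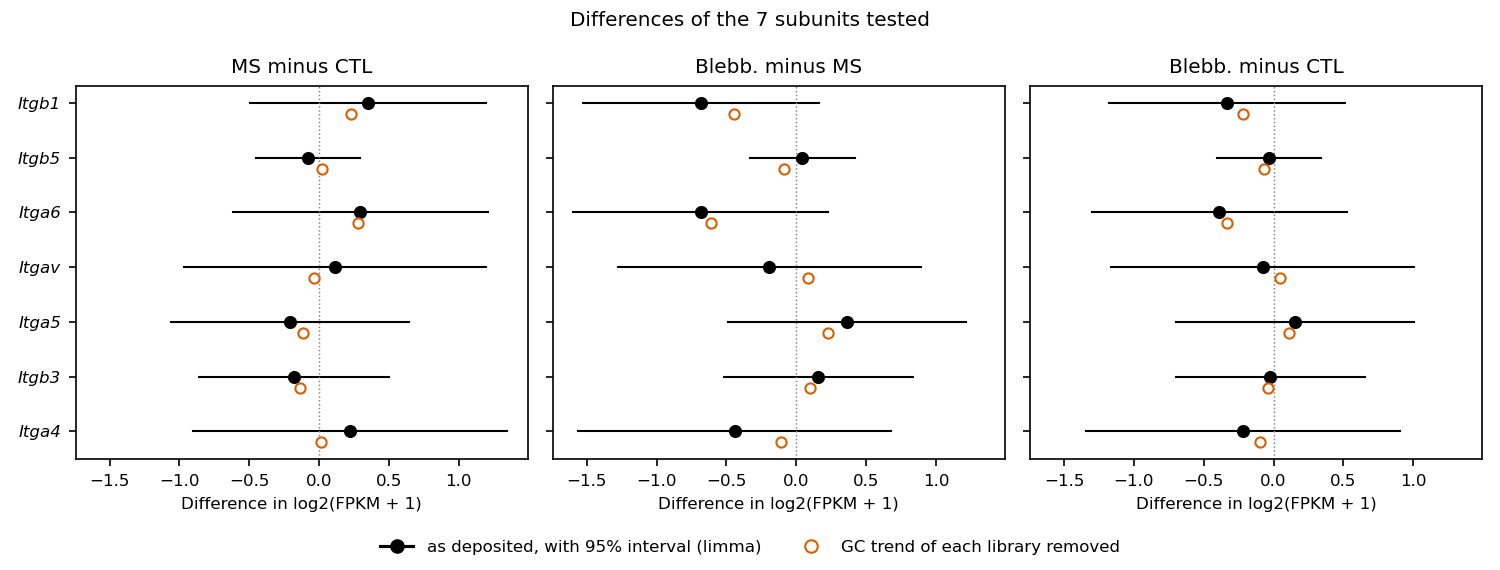
Differences in log2(FPKM + 1) between groups for the 7 members tested, 1 panel per comparison, filled points with 95% intervals from limma (n = 3 libraries per group) and open points for the value with the GC trend removed. Every interval spans 0, and the points farthest from 0 are those of Itga6 and Itgb1 in Blebb. against MS, both at -0.68.

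Most of the variance of these genes lay within the groups. The share between groups was 28.1% for Itgb1, 25.7% for Itga6, 10.2% for Itga5, 8.60% for Itga4, 5.35% for Itgb3, 3.54% for Itgb5 and 1.87% for Itgav, beside a median of 12.7% over all genes tested. The SD within groups was 0.72 on the log2 scale for Itga4, 0.70 for Itgav, 0.58 for Itga6, 0.54 for Itgb1 and for Itga5 and 0.41 for Itgb3, each above the median of 0.25 over the genes tested, and 0.20 for Itgb5. Itgav and Itga4 varied within groups more than 95.3 and 95.9% of the genes tested.

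The spread within groups had a common shape. CTL 1 and Blebb. 2 held the 2 lowest values of Itgb1, Itgav, Itga4 and Itga6 and the 2 highest values of Itgb3 and Itga5, narrowly so for Itgb1, where Blebb. 1 was close to CTL 1. MS 1 held the highest value of Itgb1, Itgav, Itga4 and Itga6 and the lowest of Itga5. For Itgav, CTL 1 lay 1.04 below its mean over the 9 libraries on the log2(FPKM + 1) scale and MS 1 lay 0.65 above it, while the Itga5 deviations of the same libraries were 0.67 and -0.55. Across the 9 libraries, Pearson's r was 0.96 between Itgb1 and Itga6, 0.88 between Itgav and Itga6, 0.77 between Itgb1 and Itgav and -0.91 between Itgav and Itga5. With Itgb1 and Itgav in turn, it was -0.76 and -0.80 for Itgb5 and -0.54 and -0.85 for Itgb3. These are descriptions over points that share library, depth and base composition.

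Base composition moved with this pattern. The members that went together had transcripts of 41.1% (Itga4), 43.5% (Itgav), 44.8% (Itgb1) and 48.9% GC (Itga6), and the others of 52.1% (Itgb3), 57.0% (Itgb5) and 57.3% (Itga5). Over the 9663 genes tested with a known GC content, the deviation of a library from the mean correlated with GC content at r = 0.45 in CTL 1, 0.54 in Blebb. 2 and 0.55 in Blebb. 1, and at -0.64 in MS 1, -0.54 in Blebb. 3 and -0.42 in CTL 3. With that trend removed, the range over the libraries went from 1.84 to 0.81 on the log2 scale for Itga4, from 1.69 to 1.09 for Itgav, from 1.60 to 0.97 for Itgb1 and from 0.50 to 0.32 for Itgb5. The range of Itga6 (1.77 to 1.57), Itga5 (1.46 to 1.15) and Itgb3 (0.92 to 0.79) was reduced less. CTL 1 and Blebb. 2 remained the highest libraries for Itgb3 and Itga5, at 0.51 and 0.49 above the mean for the former and 0.61 and 0.73 for the latter. What gave rise to the trend was not tested.

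**Figure D4:**
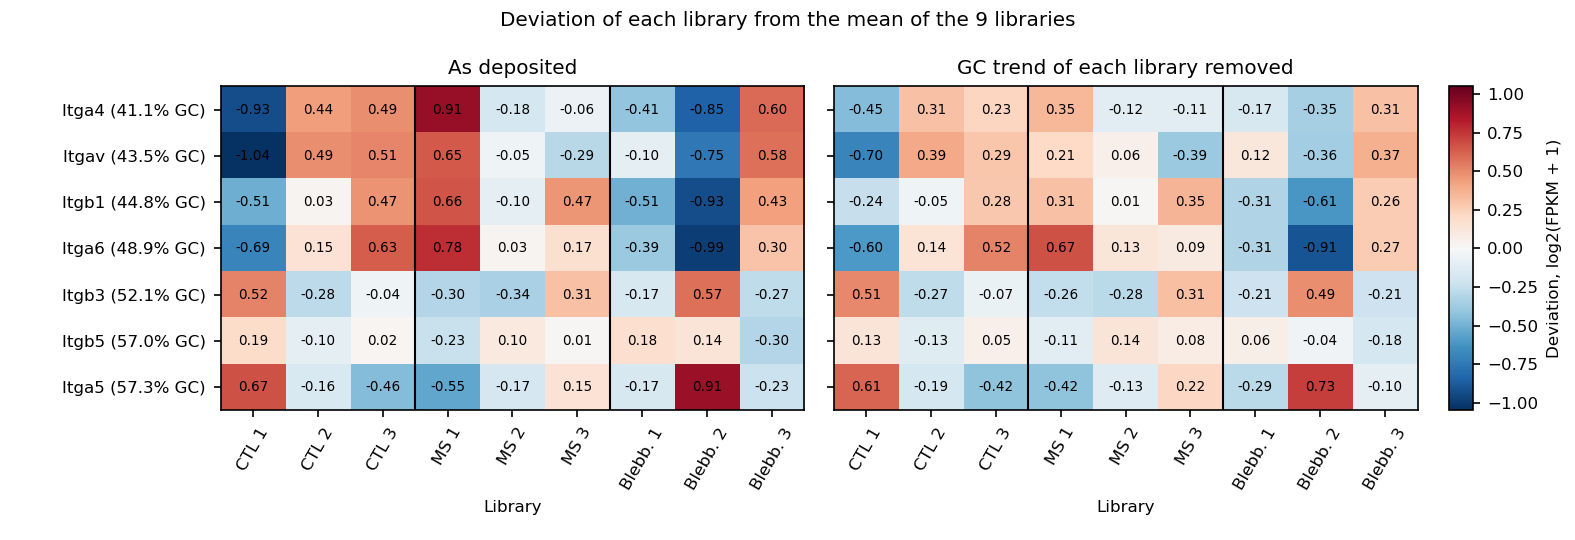
Deviation of each library from the mean of the 9 libraries in log2(FPKM + 1), as a colour scale, for the 7 members tested, ordered by the GC content of their transcripts, with values as deposited and with each library's GC trend removed. CTL 1 and Blebb. 2 are low for the members of lower GC content and high for Itgb3 and Itga5 in both panels, and the Itga4 range shrinks from 1.84 to 0.81.

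Genes with the pattern most like that of Itgb1 and Itgav over the 9 libraries were sought among the 7003 other genes that averaged 5 FPKM or more. For Itgb1 they were Tmx1 (Pearson's r 0.992), Dnajc10 (0.991), Usp47 (0.990), Thap12 (0.989) and Map4k5 (0.988), while Itga6 ranked 159 and Itgav 1264. For Itgav they were Ppp1r12a (0.991), Mtdh (0.989), Kansl1 (0.988), Ppp4r3a (0.987) and Srsf6 (0.987), while Itga6 ranked 815 and Itgb1 1482. The first principal component carried 70.4% of the variance of the genes tested.

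The 16 other integrin genes were mostly near 0. Itga9, an α partner of β1 that binds tenascin and osteopontin, was the exception, with 11.1, 5.73 and 5.74 FPKM in CTL, 4.11, 4.66 and 10.6 FPKM in MS and 6.13, 11.7 and 5.01 FPKM in Blebb. Its highest values fell in CTL 1, MS 3 and Blebb. 2, and its log2 differences were -0.24 for MS against CTL, 0.23 for Blebb. against MS and -0.0031 for Blebb. against CTL. Itgb4, the partner of α6 in hemidesmosomes, reached 1 FPKM in CTL 3 alone (1.08 FPKM), and Itga1, a collagen receptor chain, in MS 1 alone (1.10 FPKM). Itgad, Itgax and Itgb6 were listed at 0 in all libraries, and Itgb8, which like Itgb6 pairs with αv, did not exceed 0.0601 FPKM.

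Of the genes that act on integrins, none tested passed the threshold in any comparison. Of 10 genes listed as activators, 8 were tested and 0 rose or fell, and Fermt1 was listed at 0 in all libraries. Their median log2 difference was -0.045 in MS against CTL, 0.052 in Blebb. against MS and 0.012 in Blebb. against CTL. The lowest single difference was that of Fermt2, a kindlin, at -0.60 in Blebb. against MS (0.31 in MS against CTL). The highest was that of Rap1a, the small GTPase, at 0.35 in MS against CTL (-0.33 in Blebb. against MS). Tln1, talin, had the highest level of the activators, with a mean of 75.2 FPKM. All 6 inactivators were tested and 0 were called, led in level by Flna, filamin A, at 120 FPKM, with medians of -0.060, 0.075 and 0.038 in the same order. Of 10 trafficking genes 9 were tested and 0 were called, with medians of -0.042, 0.022 and 0.029. The median over all genes tested was -0.0018, -0.0059 and -0.013.

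Membrane partners of integrins included the 1 gene of these lists with an unadjusted p under 0.05. This was Lgals3 in Blebb. against CTL, where 0.089% of all genes tested had such a p. Of 12 partners 11 were tested and 0 passed the adjusted threshold, with medians of 0.0099, 0.073 and 0.082. Lgals3 encodes galectin-3, which binds the glycans of integrins. It read 2.44, 6.36 and 6.61 FPKM in CTL, 8.08, 6.95 and 3.48 FPKM in MS and 10.3, 10.9 and 10.2 FPKM in Blebb., so that all Blebb. libraries were above all others. Its log2 difference was 0.99 in Blebb. against CTL (SE 0.34, interval 0.21 to 1.77, adjusted p = 1.00 in limma) and 0.74 against MS (interval -0.038 to 1.52, adjusted p = 0.897 in limma). Of all genes tested, 0.93% were wholly higher in Blebb. than in CTL and 3.05% wholly higher than in MS. The share wholly higher than in both groups was not computed.

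Ligand genes were measured in the same cells. Of 14 genes for RGD and related ligands 7 were tested, led by Mfge8 at 35.3 FPKM, and their median differences were -0.13, 0.13 and 0.079 in MS against CTL, Blebb. against MS and Blebb. against CTL. Tnc and Vcam1, which encode ligands of α9 and α4, were listed at 0 in all libraries. Of 16 laminin and collagen genes 6 were tested, led by Lamb2 at 28.7 FPKM, with medians of -0.16, 0.087 and -0.033. In neither list did a gene rise or fall past the threshold in any comparison.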

How the data were processed

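RNA was extracted with TRIzol, libraries were made with a SMARTER mRNA-Seq kit, and the authors deposited 1 FPKM value for each gene and library, already scaled by gene length and mapped fragments. The submitters' processing notes name the builds GRCm38 and mm10. The aligner and counter are not given in the sources used here. The column of CTL 1 was headed by the sample's name and read as FPKM. On the log2(FPKM + 1) scale, the 10109 genes that averaged 1 FPKM or more were fitted over the 3 groups in limma 3.58.1 (lmFit, eBayes with trend, R 4.3.3), two-sided, adjusted by Benjamini-Hochberg over every gene tested, a threshold of 0.05 and 95% intervals. Exact permutation tests served for the 3 members below that mean. The fit was tested on simulated data. GC content came from the longest transcript in GENCODE M21, and its trend in each library was fitted by loess (span 0.5). Motifs were searched on both strands of the 250 bases before each RefSeq start. Alternatives were no minimum, a minimum of 5 FPKM, a pseudocount of 0.1, quantile normalization, median-of-ratios factors, a fit without trend, a fit of the compared groups alone, the replicate number as a block, the GC trend removed, a block for the libraries apart, both together, leaving those out, and leaving out each library. The rule for the members takes gene symbols and no measured values, but members, gene lists, named genes and alternatives were chosen with earlier results of these data known. Named were all members, other integrin genes reaching 1 FPKM in any library, list genes at the ends of a range, and the 5 genes most like Itgb1 and Itgav. Genes named by level as the highest of a list or as listed at 0, Itgb8 and the libraries' values of Lgals3 were chosen after their values were seen. Plots were drawn with matplotlib 3.10.9.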

Additional observations from a re-analysis of the deposited data

How the results depend on the processing

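The number of members past the adjusted threshold was 0 in each comparison and over all groups under every alternative run and with each library left out. The number at an unadjusted p under 0.05 in Blebb. against MS was 0 as reported. It was 1 with no minimum (Itga3), 1 with the libraries apart as a block (Itga6), and 2 with that block and the GC trend removed (Itga6 and Itgb1). It ranged from 0 to 2 when each library was left out, 2 being without Blebb. 3. Genes with such a p numbered 73 higher and 53 lower of 10109 as reported, and 231 and 151 of 16483 with no minimum. They numbered 341 and 245 of 10109 with the block, and 377 and 336 of 9663 with the GC trend removed as well. Without Blebb. 3 they numbered 308 and 626 of 10109. Over all 3 groups the number of members ranged from 0 to 1 when each library was left out. The 1 was Itgb1 without Blebb. 3, where 172 of 10109 genes had such a p.

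For the 7 members tested, 235 of 249 differences kept direction under the alternatives that left in all libraries or left out the 3 apart. With each library left out, 161 of 189 did. Many of these could not turn. Another minimum, no trend, the compared groups alone and either block alone give the main difference by construction. Leaving out a library of the group not compared does so as well. The 14 and 28 values that turned therefore all came from the remaining settings. Removing the GC trend, with or without the block for the libraries apart, turned Itgav to 0.046 in Blebb. against CTL, 0.086 in Blebb. against MS and -0.040 in MS against CTL, and Itgb5 to -0.089 in Blebb. against MS and 0.018 in MS against CTL. Leaving out the 3 libraries apart turned MS against CTL to -0.20 for Itgav and -0.10 for Itga4, and left 0.031 for Itgb1 and 0.013 for Itga6. Itgb3 in Blebb. against CTL was 0.0041 with median-of-ratios factors and 0.046 with quantile normalization, which also turned MS against CTL to -0.0042 for Itga2 and -0.0053 for Itga7. The cause was not tested.

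In MS against CTL the direction of these members turned with a single library left out, over the ranges Itga2 from -0.0023 to 0.0087, Itga4 from -0.24 to 0.47, Itga5 from -0.45 to 0.12, Itga6 from -0.065 to 0.60, Itga7 from -0.034 to 0.045, Itgav from -0.40 to 0.38, Itgb3 from -0.39 to 0.047 and Itgb5 from -0.15 to 0.018. In Blebb. against MS the direction of these members turned with a single library left out, over the ranges Itga2 from -0.013 to 0.0017, Itga5 from -0.0077 to 0.56, Itga7 from -0.063 to 0.027, Itgav from -0.53 to 0.14, Itgb3 from -0.11 to 0.37 and Itgb5 from -0.052 to 0.20. In Blebb. against CTL the direction of these members turned with a single library left out, over the ranges Itga2 from -0.0091 to 0.0059, Itga4 from -0.69 to 0.092, Itga5 from -0.22 to 0.48, Itga7 from -0.054 to 0.029, Itgav from -0.59 to 0.25, Itgb3 from -0.29 to 0.20 and Itgb5 from -0.12 to 0.12. Itgb1 kept its direction in all 3 comparisons, but over ranges from 0.093 to 0.59 in MS against CTL, -1.06 to -0.38 in Blebb. against MS and -0.72 to -0.035 in Blebb. against CTL. Itga6 ran from -1.01 to -0.37 and from -0.75 to -0.075 in the latter comparisons, and Itga4 from -0.85 to -0.096 in Blebb. against MS. Itga3, under 1 FPKM in every library, kept its direction in all 3 comparisons as well. Its ranges were -0.13 to -0.040 in MS against CTL, 0.11 to 0.19 in Blebb. against MS and 0.022 to 0.11 in Blebb. against CTL.

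Same-numbered libraries were no more alike than others, which does not settle whether the numbers pair the libraries. Deviations of same-numbered libraries correlated at r between -0.78 and 0.84 over 9 pairs (median -0.23), beside -0.88 to 0.92 over 18 pairs of different number (median 0.20). With the replicate block 0 members passed the adjusted threshold and 0 had an unadjusted p under 0.05 in each comparison, as without it. The depth is unknown, so that what counting error limits in Itga2, Itga3 and Itga7 could not be computed, and 3 libraries per group left intervals as wide as -1.57 to 0.68 (Itga4 in Blebb. against MS).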
